A study of Mus musculus with 4 samples.

Results

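The serpins are a family of protease inhibitors that share 1 protein fold and are sorted into clades named by letter. Their RNA was measured by RNA sequencing of whole mouse uterus on gestational day 4, in the days when the uterus becomes able to receive the blastocyst. Members were taken as all protein-coding genes of the deposited expression table whose symbol is Serpin followed by a clade letter from a to i. This gave 21 genes among the 19991 in that table and the 57186 in the count table, 5 of clade A, 8 of clade B, 3 of clade E and 1 each of clades C, F, G, H and I. The knockout group (n = 2 libraries) was Prss29Cre/Cre;Pgrf/f, that is, both copies of Prss29, a protease gene of the uterine glands, carried Cre recombinase, and both copies of the progesterone receptor gene Pgr were floxed. The control group (n = 2 libraries) was wild type. Because the controls carry neither Cre at Prss29 nor floxed alleles, loss of the receptor in gland epithelium, the altered Prss29 locus and the presence of Cre cannot be told apart, and neither can strain or age, which the labels do not give. The labels call the libraries replicates without saying that each came from a separate mouse, so the spread behind each p-value is that between libraries and may be partly technical.

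An inhibitory serpin offers a protease an exposed loop as bait. When the protease cuts the loop, the serpin folds over and drags the enzyme with it into a stable, inactive complex, which receptors of the low-density lipoprotein receptor family take up from outside the cell. Members of clades A, C, E, F and G are mostly secreted into plasma or matrix, most clade B members stay inside cells, and a few members have given up inhibition for other work, such as folding collagen. In the uterus around implantation, serpins meet proteases of the plasminogen, coagulation and complement systems, of leukocytes and of the glands themselves.

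The libraries held 31901278 and 29932153 counts in knockouts 1 and 2, against 35149834 and 33843256 in controls 1 and 2. Prss29 had 0 and 0 counts in the knockouts, against 1524 and 190 in the controls. Pgr was at 130.1 and 146.2 CPM (counts scaled to library size) in the knockouts, against 140.5 and 138.6 CPM in the controls. Since Pgr is also transcribed in stroma and muscle, and the floxed exons are not named in the labels, this gene-level value checks nothing about deletion in the glands. Stromal, smooth muscle and pan-epithelial marker sums were each at least 1739 CPM in every library, while trophoblast markers summed to at most 0.0907 CPM, with Cdx2, Prl3d1 and Hand1 at 0. Over all 20950 genes tested, 1 gene, which is not a serpin, passed an adjusted p of 0.05 in edgeR's quasi-likelihood test with Benjamini-Hochberg adjustment.

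Serpin RNA in the uterus was dominated by 4 genes, and no serpin passed the adjusted test of knockouts against controls. In TPM, the deposited unit that also scales by gene length, the members spanned 0.581 TPM for Serpinb12 to 1142 TPM for Serpinh1 as means of the 4 libraries. Means of at least 100 TPM were reached by 4 members, Serpinh1, Serpina1e, Serping1 and Serpinf1. A further 5 lay between 10 and 100 TPM, 10 between 1 and 10 TPM and 2 below 1 TPM. Summed over the family, the level was 1716 and 2004 TPM in the knockouts, against 2697 and 1694 TPM in the controls. Control 1 was the highest library and control 2 the lowest, so the groups overlapped.

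**Figure D1:**
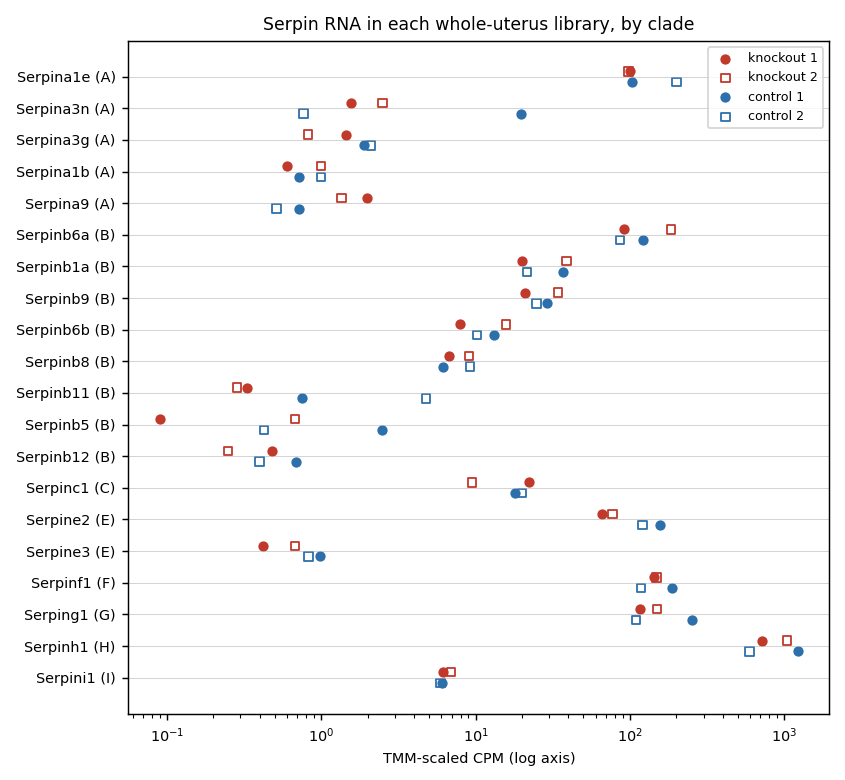
Level of 20 serpins in TMM-scaled CPM on a log axis, 1 point per library, with the knockout libraries in red and the control libraries in blue and the clade letter after each symbol. Knockout and control points overlap for most genes; for Serpine2 both knockout points, 65.9 and 77.1 CPM, lie below both control points, 156.3 and 120.4 CPM.

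Serpinh1, the only clade H member, encodes a collagen chaperone of the endoplasmic reticulum that inhibits no protease. It was the most abundant serpin, with a mean of 1142 TPM, against 244.8 TPM for Serpina1e, the next. Its mean was 5.37 times that of Serping1, which followed Serpina1e. Serpinh1 made up 56.7% and 60.7% of the family's summed TPM in the knockouts, against 59.2% and 46.2% in the controls. In TMM-scaled CPM its level was 718.7 and 1037 in the knockouts, against 1218 and 596.3 in the controls. The 2 control libraries lay outside the 2 knockout libraries on either side, and the log2 fold change of knockout over control was -0.05 (SE 0.42, 95% interval -1.05 to 0.96). Genes for collagens and the enzymes that process them summed to 8562 and 9563 CPM in the knockouts, against 15100 and 7103 CPM in the controls, the same order of libraries as for the chaperone. None of these 16 genes had an unadjusted p below 0.05 in edgeR's test, and their median log2 fold change was -0.14. That order was seen in 9 of the 16 genes. Stromal markers, 9 of 9 tested, summed to 6392 and 7596 CPM in the knockouts, against 10480 and 5558 CPM in the controls, but only 3 of the 9 genes had this order of libraries, and Col1a1 and Col3a1 stand in both lists. The 7 stromal markers outside the collagen list summed to 2866 and 3110 CPM in the knockouts, against 3291 and 2647 CPM in the controls. The part of stromal content in the Serpinh1 values was not tested, and in whole tissue fewer cells of a type and less RNA per cell cannot be told apart.

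Serpinf1 of clade F encodes pigment epithelium-derived factor, a secreted serpin without inhibitory activity that restrains vessel growth. Its RNA was at 143.4 and 149.1 CPM in the knockouts, against 188.2 and 118.2 CPM in the controls. The knockout libraries fell between the control libraries, and the log2 fold change was -0.07 (SE 0.28, 95% interval -0.73 to 0.60).

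Serping1 of clade G encodes C1 inhibitor, which blocks the starter proteases of complement and of the contact pathway. It was at 116.3 and 150.0 CPM in the knockouts, against 253.3 and 109.6 CPM in the controls. Control 1 stood alone at the top and control 2 at the bottom. The log2 fold change was -0.45 (SE 0.40, 95% interval -1.40 to 0.51). Without control 1 it was 0.30 and without control 2 it was -0.93, with unadjusted p = 0.0251 in edgeR's test.

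Clade A holds the relatives of alpha-1-antitrypsin, the main inhibitor of neutrophil elastase in plasma. All 5 members measured here lie on chromosome 12. The mouse genome carries several near-copies of the human gene, and the uterus used them unequally. Serpina1e, 1 of those copies, was the second most abundant serpin with a mean of 244.8 TPM, while Serpina1b averaged 1.07 TPM, a ratio of 228. Serpina1a and Serpina1c had 0 counts in every library, and Serpina1d had 0 and 5 counts in the knockouts, against 8 and 6 in the controls. The promoters of both measured copies, 250 bases before to 50 bases after the start site as given by RefSeq on the mouse build GRCm38.p6, are printed because their genes differ so much in level while the sequences hardly do. Capitals mark TGTTCT, the reverse strand reading of the progesterone and glucocorticoid receptor half-site AGAACA, which neither window holds a second time on either strand.
Serpina1e promoter, chr12:103956848-103957147, minus strand: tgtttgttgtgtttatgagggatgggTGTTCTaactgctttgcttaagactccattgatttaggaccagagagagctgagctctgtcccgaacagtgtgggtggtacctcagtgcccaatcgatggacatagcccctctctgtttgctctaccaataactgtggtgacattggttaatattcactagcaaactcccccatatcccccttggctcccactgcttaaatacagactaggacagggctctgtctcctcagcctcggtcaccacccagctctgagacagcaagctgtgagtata
Serpina1b promoter, chr12:103738140-103738439, minus strand: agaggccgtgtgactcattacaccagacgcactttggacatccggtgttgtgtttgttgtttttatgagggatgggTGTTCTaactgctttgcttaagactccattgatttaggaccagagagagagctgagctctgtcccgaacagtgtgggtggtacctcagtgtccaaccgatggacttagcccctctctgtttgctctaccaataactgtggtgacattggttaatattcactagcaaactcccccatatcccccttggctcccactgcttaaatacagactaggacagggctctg
Over the 250 columns in which they overlap, the windows were 97.6% identical, and the same half-site, in the same surroundings, lay 224 bases before the RefSeq start of Serpina1e and 174 bases before that of Serpina1b. The half-site is common, being present in 19.0% of the 32851 RefSeq promoter windows, and a match of letters is a description only. Of the words of 150 bases, the length of a read, in annotated Serpina1e transcripts, 92.6% were found in no other serpin gene's transcripts, against 88.1% for Serpina1b, and every word of the other 19 members was unique to its gene. How reads that match several genes were counted is not given in the sources used here, so the split among these copies is uncertain.

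Serpina1e was at 100.1 and 98.1 CPM in the knockouts, against 102.8 and 200.4 CPM in the controls. Control 2 held about the sum of the knockout libraries, whereas control 1 was within a few CPM of them. The groups did not overlap in CPM, but in TPM knockout 1, at 204.5, exceeded control 1, at 203.5. The log2 fold change of -0.61 (SE 0.33, 95% interval -1.40 to 0.18) rested on control 2, and without that library it was -0.05. The 10 gland epithelium markers, of which Prss29 was at 0 in both knockouts, summed to 384.1 and 295.9 CPM in the knockouts, against 317.4 and 556.9 CPM in the controls. Fxyd4, the most abundant of them, sets the order of these sums. The other 9 summed to 101.5 and 106.9 CPM in the knockouts, against 231.9 and 183.9 CPM in the controls, so that control 1 was highest and both knockouts lay below both controls. Of the 10, 6 were lower at an unadjusted p of 0.05 in edgeR's test, against 1.79% of all genes tested, and the median log2 fold change was -2.03. The 6 include Prss29, the locus that carries Cre. Of the others, Foxa2 and Sox9 had log2 fold changes of -0.62 and -0.20, and Cxcl15 and Fxyd4 of 0.67 and 0.04. The part of gland content in the Serpina1e values was not tested. Liver markers, from the tissue that makes most antitrypsin, summed to 0.333 and 0.998 CPM in the knockouts, against 2.30 and 0.940 CPM in the controls.

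Serpina3n, the mouse counterpart of alpha-1-antichymotrypsin and an inhibitor of granzyme B and neutrophil elastase in mouse, varied more between the controls than any other serpin. It had 52 and 70 counts in the knockouts, against 682 and 27 in the controls, or 1.57 and 2.50 CPM in the knockouts, against 19.6 and 0.769 CPM in the controls. The controls differed 25.5-fold, with both knockouts between them. The log2 fold change was -2.33 (SE 1.20, 95% interval -5.19 to 0.54). It was -1.06 with a replicate block, -0.98 by limma-voom and -1.07 on log2(TPM + 1). Without control 1 it was 1.41, and without control 2 it was -3.27 with adjusted p = 0.0204 in edgeR's test, a setting under which 0.0966% of all genes were called lower. The Serpina3n promoter is printed because it was the only one among the 19 member windows, which covered 17 members, with a full progesterone and glucocorticoid receptor element, searched as GNACA, then any 3 bases, then TGTNC, and marked in capitals. The element reads alike on both strands.
Serpina3n promoter, chr12:104406458-104406757, plus strand: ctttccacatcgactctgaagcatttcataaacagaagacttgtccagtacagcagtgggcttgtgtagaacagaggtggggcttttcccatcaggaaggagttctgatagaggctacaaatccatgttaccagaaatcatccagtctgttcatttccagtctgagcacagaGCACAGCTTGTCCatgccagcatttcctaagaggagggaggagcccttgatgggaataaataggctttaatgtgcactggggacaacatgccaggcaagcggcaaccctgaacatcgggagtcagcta
It begins 78 bases before the start site and does not overlap the half-site AGAACA at 183 bases before the start. The full element occurred in 156 of all windows, or 0.475%.

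Serpina3g, which in mouse restrains lysosomal cysteine cathepsins inside cells, was at 1.45 and 0.820 CPM in the knockouts, against 1.90 and 2.11 CPM in the controls. Both knockouts lay below both controls, with log2 fold change -0.81 (SE 0.51, 95% interval -2.03 to 0.40). Serpina9, known from germinal centre B cells, was at 2.00 and 1.35 CPM in the knockouts, against 0.720 and 0.513 CPM in the controls. Its values rest on 66 and 38 counts in the knockouts, against 25 and 18 in the controls, and both knockouts lay above both controls. The log2 fold change was 1.44 (SE 0.54, 95% interval 0.15 to 2.73), with unadjusted p = 0.0338 and adjusted p rounding to 1.0 in edgeR's test. The unadjusted p was 0.168 without knockout 1, 0.0727 without control 1, 0.171 without control 2 and 0.0358 without knockout 2. On log2(TPM + 1) the log2 fold change was 0.64, with unadjusted p = 0.0527 in limma's test. B and plasma cell markers, 5 of 7 tested, summed to 41.3 and 48.2 CPM in the knockouts, against 205.8 and 206.0 CPM in the controls, sums carried by the antibody genes Igkc and Jchain. The part of B cell content in the Serpina9 values was not tested. Serpina1b was at 0.605 and 0.998 CPM in the knockouts, against 0.720 and 0.997 CPM in the controls, so the groups overlapped.

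**Figure D2:**
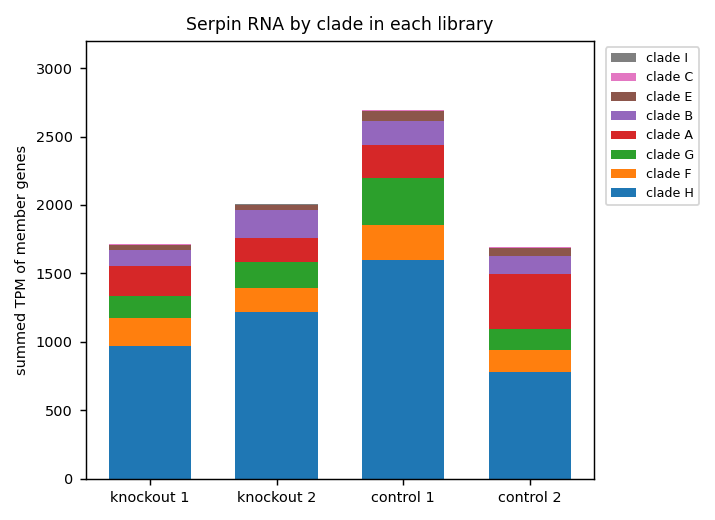
Summed TPM of the member genes in each library, with the knockouts on the left and the controls on the right and bars stacked by clade from H at the bottom. Clade H is the largest block in every library, and the clade A block is largest in control 2, where Serpina1e made up 23.5% of the sum, against 11.9% and 8.66% in knockouts 1 and 2 and 7.54% in control 1.

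Clade B members guard the inside of cells against stray proteases. The 4 on chromosome 13 were the better expressed. Serpinb6a, an inhibitor of cathepsin G, averaged 69.1 TPM over the 4 libraries, Serpinb1a, an inhibitor of neutrophil elastase and related enzymes, 39.6 TPM, Serpinb9, an inhibitor of granzyme B, 24.3 TPM, and Serpinb6b, an inhibitor of granzyme A in mouse, 16.1 TPM. Serpinb6a was at 91.1 and 184.8 CPM in the knockouts, against 121.3 and 86.4 CPM in the controls. For Serpinb1a the levels were 20.0 and 38.7 CPM in the knockouts, against 37.1 and 21.6 CPM in the controls. Serpinb9 had 20.9 and 34.3 CPM in the knockouts, against 29.0 and 24.8 CPM in the controls. In all of these, and in Serpinb6b, knockout 2 exceeded knockout 1 and control 1 exceeded control 2, so that the groups overlapped. Their log2 fold changes lay between -0.0017 for Serpinb1a and 0.41 for Serpinb6a (SE 0.37, 95% interval -0.47 to 1.28). Smooth muscle marker sums had knockout 2 above knockout 1 and control 1 above control 2 as well. They were 7685 and 11630 CPM in the knockouts, against 8955 and 3371 CPM in the controls. That pattern was not particular to muscle. Marker sums of stroma, mesothelium and red blood cells had it too. So did 5 of 9, 5 of 5 and 5 of 5 of their genes, against 10 of 10 for muscle. Sums of liver markers and of oviduct and ciliated cell markers had it only through Fga and Tppp3. Without Fga, the liver sum was 0.461 CPM in control 1 and 0.940 CPM in control 2. Without Tppp3, the oviduct and ciliated cell sum was 32.7 CPM in control 1 and 44.7 CPM in control 2. Marker sums of pan-epithelium, endothelium and macrophages, among others, did not have the pattern. The part of muscle or other cell content in these serpin values was not tested. Neutrophil markers, 5 of 8 tested, summed to only 5.53 and 6.92 CPM in the knockouts, against 5.41 and 10.7 CPM in the controls.

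The 4 clade B members on chromosome 1 were scarce. Serpinb8, an inhibitor of furin, averaged 5.08 TPM, and its log2 fold change was 0.04. Serpinb11, a trypsin inhibitor in mouse, had 11 and 8 counts in the knockouts, against 26 and 168 in the controls, or 0.333 and 0.285 CPM in the knockouts, against 0.748 and 4.79 CPM in the controls. Both knockouts lay below both controls, and the controls themselves differed 6.40-fold. The log2 fold change was -3.15 (SE 0.93, 95% interval -5.36 to -0.93), with unadjusted p = 0.0123 and adjusted p rounding to 1.0 in edgeR's test. Without control 2 it was -1.27, with unadjusted p = 0.249 in edgeR's test. The Serpinb11 promoter is printed because that gene had the lowest fold change of the family. Capitals mark TGANTCA, the element bound by AP-1 factors, which reads alike on both strands and lay 181 and 76 bases before the start site.
Serpinb11 promoter, chr1:107362064-107362363, plus strand: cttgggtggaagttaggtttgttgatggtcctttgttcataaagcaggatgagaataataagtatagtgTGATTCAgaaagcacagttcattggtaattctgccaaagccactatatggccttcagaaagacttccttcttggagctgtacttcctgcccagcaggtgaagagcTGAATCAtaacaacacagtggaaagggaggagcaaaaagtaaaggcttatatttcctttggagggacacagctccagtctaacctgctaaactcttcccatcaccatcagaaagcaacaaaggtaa
The AP-1 element occurred in 7.81% of all RefSeq promoter windows and in 5 of the 19 member windows, those of Serpina1b, Serpinb11, Serpinb12, Serpinb5 and Serpinb8.

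Serpinb5, or maspin, a non-inhibitory serpin of epithelial cells, had 3 and 19 counts in the knockouts, against 86 and 15 in the controls. These correspond to 0.0907 and 0.677 CPM in the knockouts, against 2.48 and 0.427 CPM in the controls, and knockout 1 was at the level of the 3-count floor, 0.0907 CPM in that library. The groups overlapped, and the log2 fold change of -1.93 (SE 1.10, 95% interval -4.56 to 0.70) was -0.16 without control 1, -1.10 without knockout 1, -2.70 without control 2 and -3.95 without knockout 2. In edgeR's test, the unadjusted p was 0.0162 without control 2 and 0.0145 without knockout 2. Serpinb12, a trypsin inhibitor, had the lowest total of the family, 61 counts, and its log2 fold change was -0.56 (SE 0.69). Over the 8 members of clade B the median log2 fold change was 0.01, with 4 below and 4 above 0.

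**Figure D3:**
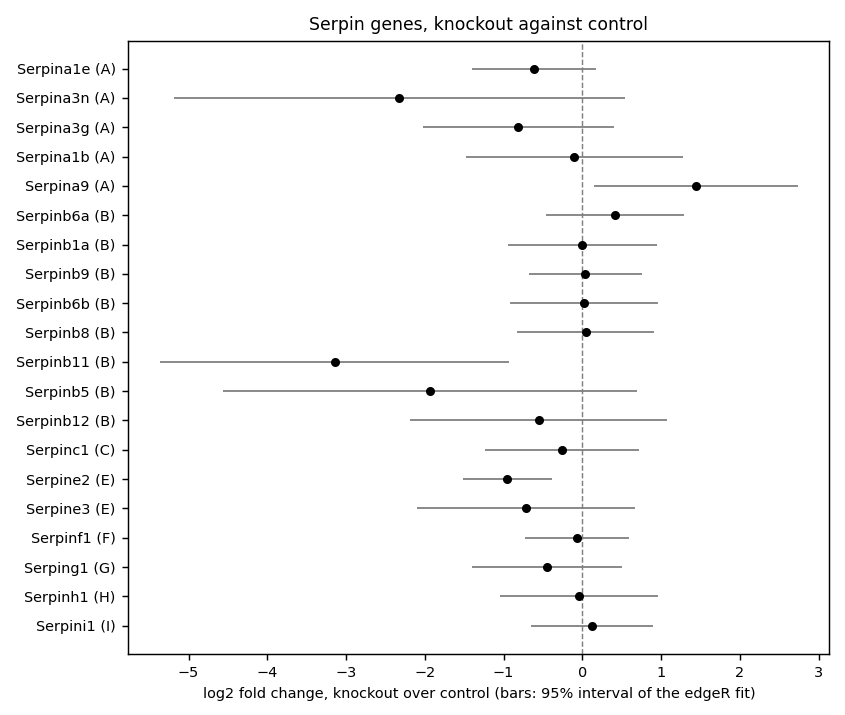
Log2 fold change of knockout over control for 20 serpins, with the 95% interval of the edgeR fit as a bar and the clade letter after each symbol. The interval includes 0 for 17 of the 20 genes; those of Serpine2 and Serpinb11 lie below 0 and that of Serpina9 above.

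Clade E includes inhibitors of the plasminogen system. Serpine2, or protease nexin 1, is a cell-bound inhibitor of thrombin, urokinase and plasmin. Serpine2 had 2181 and 2163 counts in the knockouts, against 5431 and 4224 in the controls. Scaled, this was 65.9 and 77.1 CPM in the knockouts, against 156.3 and 120.4 CPM in the controls. Both knockouts lay well below both controls, and the gap between the groups exceeded that within either group. Group means were 71.5 ± 7.90 CPM in the knockouts and 138.3 ± 25.4 CPM in the controls (SD, n = 2 each). The log2 fold change was -0.95 (SE 0.24, 95% interval -1.51 to -0.39), with unadjusted p = 0.00522 and adjusted p rounding to 1.0 in edgeR's test. This was the smallest unadjusted p of the family, and with any 1 library left out the log2 fold change stayed between -1.13 and -0.74. Without control 1 the unadjusted p in edgeR's test was 0.0569. Its promoter is printed as that of the serpin with the smallest p. Capitals mark GGGCGG, the GC box bound by Sp1-type factors.
Serpine2 promoter, chr1:79858616-79858915, minus strand: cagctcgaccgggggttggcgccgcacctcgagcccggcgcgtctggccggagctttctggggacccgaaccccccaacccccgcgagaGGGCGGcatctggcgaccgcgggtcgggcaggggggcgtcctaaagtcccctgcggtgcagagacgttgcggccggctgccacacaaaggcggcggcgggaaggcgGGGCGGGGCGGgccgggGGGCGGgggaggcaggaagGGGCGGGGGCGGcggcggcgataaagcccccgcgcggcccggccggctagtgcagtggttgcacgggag
On the strand shown, GC boxes began at 6 positions, 161, 55, 50, 38, 19 and 13 bases before the start site, of which those at 55 and 50 share 1 base. The reverse reading CCGCCC was not found. A GC box was present in 35.7% of all windows and in 6 of the 19 member windows. At 77.7% G and C, the Serpine2 window was the richest among the members, against a median of 52.7% over all windows.

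Serpine3 was scarce, at 0.423 and 0.677 CPM in the knockouts, against 0.979 and 0.826 CPM in the controls. Both knockouts lay below both controls, with log2 fold change -0.72 (SE 0.58, 95% interval -2.10 to 0.67). In the GENCODE M21 annotation 24.8% of the exon bases of Serpine3 are shared with the exons of Ints6 on the opposite strand, and whether counting used strand is not given in the sources used here. The same uncertainty holds for Serpinc1 and for Serpinb6a, which shares 14.1% with Nqo2, 10.8% with 1110046J04Rik and 4.46% with Ripk1.

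Serpinc1 of clade C encodes antithrombin, the heparin-dependent inhibitor of thrombin and factor X. It was at 22.2 and 9.52 CPM in the knockouts, against 18.1 and 20.0 CPM in the controls. Knockout 1 was the highest library and knockout 2 the lowest, and the log2 fold change was -0.26 (SE 0.41, 95% interval -1.24 to 0.72). Of its exon bases, 34.4% are shared with Zbtb37 on the opposite strand, which had between 862 and 1192 counts per library. Serpini1 of clade I encodes neuroserpin, an inhibitor of tissue plasminogen activator. It was the steadiest member, at 6.17 and 6.95 CPM in the knockouts, against 6.10 and 5.93 CPM in the controls. Both knockouts lay above both controls by a small margin, with log2 fold change 0.12 (SE 0.33, 95% interval -0.65 to 0.90).

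Across the family, 0 of the 21 members passed an adjusted p of 0.05 in edgeR's test in either direction, where the share of all genes tested was 0.0% lower and 0.00477% higher. limma-voom called 0 members, with 0.0% of all genes lower and 0.0% higher. DESeq2 likewise called 0 members, with 0.206% of all genes lower and 0.197% higher; its smallest adjusted p among members was 0.0876, for Serpinb11. At an unadjusted p of 0.05, 2 members were lower, Serpine2 and Serpinb11, and 1 was higher, Serpina9, which is 9.52% and 4.76% of the members, against 1.79% and 1.22% of all genes tested. In CPM, both knockouts lay below both controls for 5 members, or 23.8%, against 13.1% of all genes, and above them for 2 members, or 9.52%, against 12.2%. Serpina1e, among the 5, overlapped in TPM. Log2 fold changes were below 0 for 15 members, 71.4%, against 48.9% of all genes, with a median of -0.10 for the members and 0.01 for all genes. All 21 members passed the filter on low counts, and 17 had a mean of at least 1 CPM. The member with the fewest counts inside the deposited table was Serpinb12 with 61, and the protein-coding serpin with the most counts outside it was Serpinb6c with 33.

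For most serpins the controls differed from each other by more than the groups did. The gap between the 2 controls on the log2 scale exceeded the group difference for 14 of 21 members, or 66.7%, against 65.6% of all genes, so the family was near the background in this. The median gap was 0.59 for members and 0.33 for all genes between the controls, and 0.68 and 0.41 between the knockouts. The median size of the group difference was 0.41 for members and 0.20 for all genes. Control 1 exceeded control 2 for 15 members, and knockout 2 exceeded knockout 1 for 15 members. Control 1 was the highest of the 4 libraries for 9 members, knockout 2 for 6, control 2 for 4 and knockout 1 for 2. These counts by library were not set against all genes, so they are not shown to be particular to the serpins. Over the genes tested, deviations of same-numbered libraries from their group means had a correlation of -0.444.

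**Figure D4:**
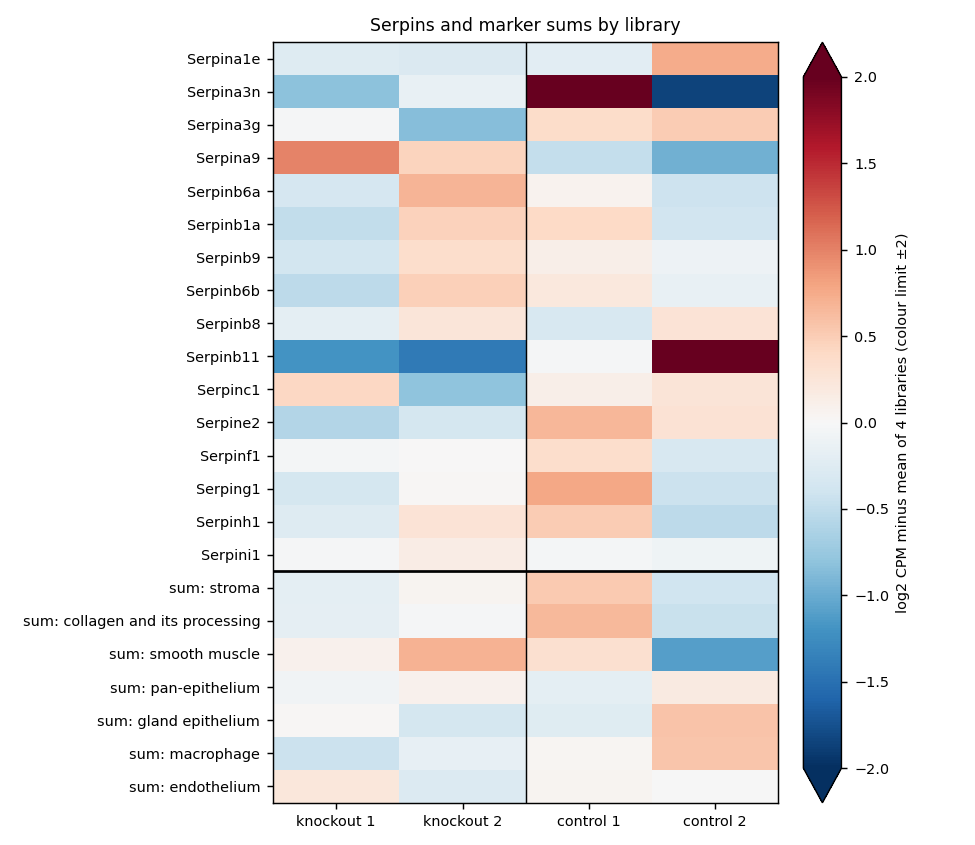
Colour map of log2 CPM minus its mean over the 4 libraries, with 16 serpins of at least 1 CPM above the thick line and sums of marker lists below it, the knockouts on the left and the controls on the right. Serpina3n in control 1 and Serpinb11 in control 2 reach the red end of the scale, and the stroma and collagen sums are highest in control 1, at 10480 and 15100 CPM.

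Proteases that serpins inhibit and partners that clear or need them were read from 8 lists of 99 genes, 82 of them tested. Of these, 8 were lower and 2 higher at an unadjusted p of 0.05 in edgeR's test, and 0 passed the adjusted test. At the unadjusted threshold, 1.79% of all genes tested were lower and 1.22% higher, and these shares apply to each list below. The 8 include Prss29, the locus that carries Cre. Among 7 tested genes of plasminogen activation, which include targets of clade E, 0 had an unadjusted p below 0.05, and the median log2 fold change was -0.05. Plat, tissue plasminogen activator, was at 105.1 and 151.6 CPM in the knockouts, against 122.8 and 142.6 CPM in the controls. Plau, urokinase, was at 9.13 and 26.2 CPM in the knockouts, against 19.7 and 12.6 CPM in the controls, so for both enzymes the groups overlapped. The smallest p-values in this list belonged to Klkb1, plasma kallikrein, with log2 fold change -2.05 and unadjusted p = 0.0849 in edgeR's test, and S100a10, part of a plasminogen-binding complex, with 0.58 and unadjusted p = 0.279. Plat and Plau were chosen for their role, after their values were seen.

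Of 10 tested coagulation genes, 1 was higher at an unadjusted p of 0.05. This was Procr, the endothelial protein C receptor, with 73.6 ± 21.0 CPM in the knockouts and 39.0 ± 10.9 CPM in the controls (SD, n = 2 each), log2 fold change 0.92 and unadjusted p = 0.0193 in edgeR's test. Thbd, thrombomodulin, had a log2 fold change of 0.33 with unadjusted p = 0.275 in the same edgeR fit. Of 12 complement genes, the system that Serping1 restrains, 3 were lower at that threshold, namely the C1q chains C1qa, C1qb and C1qc. C1qa was at 45.9 ± 3.53 CPM in the knockouts and 70.0 ± 8.13 CPM in the controls, and C1qb at 34.1 ± 0.0271 CPM in the knockouts and 49.0 ± 5.11 CPM in the controls (SD, n = 2 each). Their log2 fold changes were -0.61 and -0.53. The C1q chains are not proteases. The starter proteases C1ra, C1s1 and Masp1 had log2 fold changes of -0.12, 0.02 and -0.15. Their unadjusted p in edgeR's test was 0.603, 0.949 and 0.727. These 3 were chosen for their role, after their values were seen. Macrophage markers, 7 of 7 tested, summed to 297.5 and 357.7 CPM in the knockouts, against 408.2 and 582.8 CPM in the controls, and their part in the C1q values was not tested.

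Among 13 tested epithelial serine proteases, 2 were lower at an unadjusted p of 0.05, Prss29 at the Cre locus and Prss28, another protease of the glands. Prss28 had 3 and 4 counts in the knockouts, against 771 and 50 in the controls. Of 9 tested leukocyte serine proteases, 1 was lower at that threshold, the mast cell tryptase Tpsab1, which had 2 and 2 counts in the knockouts, against 13 and 11 in the controls. The whole list includes targets of Serpinb1a, Serpinb6a and Serpinb9. Among these, Elane, neutrophil elastase, and Ctsg, cathepsin G, were too scarce to be tested, with at most 2 counts in any library. Gzmb, granzyme B, was tested, at 23.15 and 14.7 CPM in the knockouts, against 24.7 and 30.6 CPM in the controls. Its log2 fold change was -0.55, with unadjusted p = 0.116 in edgeR's test. Gzmb was chosen for its role, after its values were seen. Cma1, mast cell chymase, was at 1.03 and 3.71 CPM in the knockouts, against 7.83 and 4.96 CPM in the controls, with unadjusted p = 0.0582 in edgeR's test. Of 8 cysteine cathepsins, Ctsc and Ctss were lower and Ctsf was higher at that threshold. Ctsc was at 36.2 ± 2.20 CPM in the knockouts and 56.8 ± 2.75 CPM in the controls, and Ctsf at 53.5 ± 1.53 CPM in the knockouts and 33.9 ± 4.62 CPM in the controls (SD, n = 2 each).

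The 7 clearance receptors had 0 genes with an unadjusted p below 0.05 in edgeR's test and a median log2 fold change of 0.01. Lrp2, or megalin, was at 463.7 and 353.4 CPM in the knockouts, against 472.1 and 1020 CPM in the controls. Control 2 stood alone at the top there, as it did for Serpina1e, and the log2 fold change was -0.87 with unadjusted p = 0.076 in edgeR's test. Lrp8 had log2 fold change -0.69 with unadjusted p = 0.0973 in the same edgeR fit. Among the collagen genes the smallest p-values were 0.332 for Col1a2 and 0.358 for Col1a1, with log2 fold changes of -0.46 and -0.47.

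**Figure D5:**
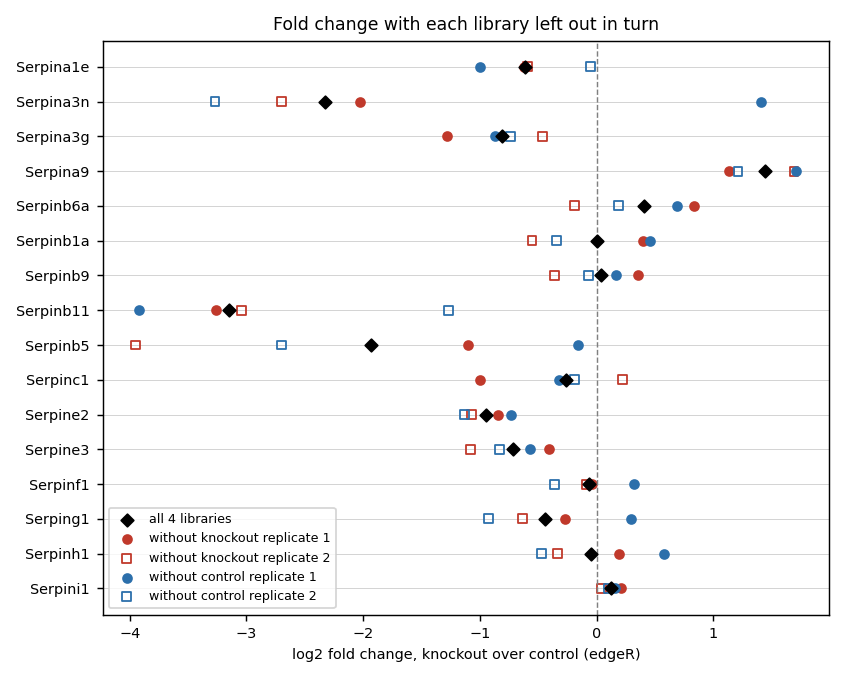
Log2 fold change of knockout over control from edgeR for 16 serpins, with all 4 libraries (diamonds) and with each library left out in turn, in red for a knockout and blue for a control. Serpine2 stays between -1.13 and -0.74, while Serpina3n moves to 1.41 without control 1 and -3.27 without control 2.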

How the data were processed

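Libraries were made from total RNA of whole uterus with an NEBNext Ultra II kit, per the labels' protocols. Per the submitters' processing notes, the tools were Trimmomatic, STAR and featureCounts, with genome build GRCm39; their versions, the strand setting and the handling of reads with several matches are not stated there. The authors deposited raw counts for 57186 genes, all of them with a gene identifier, and TPM for the 19991 genes with a total count of at least 51.

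Counts were tested with the quasi-likelihood test of edgeR 4.0.16 in R 4.3.3, fitted on group alone with TMM factors and filterByExpr (minimum count 10, minimum total 15), over 20950 genes with Benjamini-Hochberg adjustment. The common biological coefficient of variation came to 0.309 (2 residual and 4.77 prior degrees of freedom). CPM are TMM-scaled, and 3 counts equal between 0.0855 and 0.107 CPM, a floor for counting error only. TPM served for levels between genes. Alternatives were RLE and upper-quartile factors, 2 other filters, replicate blocks, each library left out, limma 3.58.1 (voom, and log2(TPM + 1) with a trend) and DESeq2 1.42.0.

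Promoters came from RefSeq on GRCm38.p6, a different build from that of the counts, for 17 of 21 members matched by symbol; motif positions count the first base of the motif from the start base. Exon overlaps and transcript words came from GENCODE M21. Named members are the 3 with the highest mean TPM in each clade, the 10 with the smallest p and those with libraries of 1 group at least 4-fold apart, and of each partner list the 2 genes with the smallest p. Members and lists were chosen with earlier results of these data known. Of the members, 1 enters the counts over the family and is not itself reported here.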

Additional observations from a re-analysis of the deposited data

How the results depend on the processing

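No call on a member depended on the scaling, the filter or the tool, since 0 members passed an adjusted p of 0.05 under any setting but 1. Without control 2, 1 member passed, Serpina3n, lower. With 16 genes under 13 settings, 185 of 206 fold changes kept direction and side of the threshold, 20 turned direction and 1 gained a call; 8 genes never turned. The cause was not tested. Log2 fold changes that turned with no library left out and no replicate block were 0.0046 (RLE) and 0.00511 (DESeq2) for Serpinb1a, -0.0165 (limma-voom) and -0.0596 (log2(TPM + 1)) for Serpinb9, and 0.0236 (limma-voom) for Serpinh1. Under the replicate blocks Serpinb9 and Serpinh1 turned as well, with the values given below. With each library left out in turn, log2 fold changes spanned -3.27 to 1.41 for Serpina3n, -3.95 to -0.156 for Serpinb5, -0.187 to 0.832 for Serpinb6a, -0.554 to 0.457 for Serpinb1a, -0.365 to 0.352 for Serpinb9, -0.999 to 0.224 for Serpinc1, -0.365 to 0.322 for Serpinf1, -0.929 to 0.296 for Serping1 and -0.473 to 0.573 for Serpinh1. Leaving out libraries moved the median over all members between -0.499 (without knockout 2) and 0.16 (without control 1), of clade A between -0.626 and -0.0549, of clade B between -0.46 and 0.298, and of clade E between -1.07 and -0.411.

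At an unadjusted p of 0.05, the number of lower members was 4 with no low-count filter (1.9% of all genes), 1 by limma-voom (1.68%), and 2 to 4 with a library left out (1.6% to 4.62%, the highest without knockout 1). The number of higher members was 0 with the replicate block (0.807%) and on log2(TPM + 1) (0.963%), and 0 to 1 with a library left out (1.24% to 3.62%). Without knockout 1 the higher member was Serpinb6a, and without knockout 2 it was Serpina9. A lone library left in a group is assumed to vary like the other group.

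Replicate numbers are shared between the groups only as numbers, and deviations of same-numbered libraries from their group means had a correlation of -0.444. With the replicate block, 0 members passed the adjusted test, while 10 genes in all were lower and 22 higher; 1 gene passed without it. Under the block the log2 fold changes were -0.944 for Serpine2, -2.62 for Serpinb11, -1.06 for Serpina3n, 1.43 for Serpina9, -0.00394 for Serpinb9 and 0.0188 for Serpinh1. A crossed pairing, chosen after seeing the data, called 0 members, 15 genes lower and 22 higher, and gave -0.003 for Serpinb9 and 0.0188 for Serpinh1. A total of 4 members had a mean under 1 CPM.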

Other observations

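Outside the deposited TPM table lay 40 protein-coding serpin genes, by the symbols of the reference, and 25 of them had 0 counts in every library. At these depths 0 counts allow up to 0.107 CPM in the shallowest library. Serpinb6c, a mouse relative of the clade B members on chromosome 13, had 2 and 1 counts in the knockouts, against 21 and 9 in the controls. Serpina3f had 7 and 3 counts in the knockouts, against 5 and 9 in the controls, and Serpinb7 had 17 counts in control 2 and 0 in the other libraries. These genes were chosen after their values were seen. Serpina3h, which the deposited table lists as a long non-coding RNA and which is therefore no member, had 6 and 2 counts in the knockouts, against 17 and 27 in the controls. Its log2 fold change was -2.26 (SE 0.77), with unadjusted p = 0.0225 and adjusted p rounding to 1.0 in edgeR's test.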
